A study of Mus musculus with 4 samples.

Results

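Type I interferon-stimulated genes are the genes that cells switch on when interferon alpha or beta binds its receptor. A list of 35 of them, chosen by name, was read among the 31053 genes counted in single leukocytes of the mouse colon, and all 35 were in the files. The sort took cells bearing CD45, which marks leukocytes, from the colon of wild-type (WT) C57BL/6 mice. One group of mice was restrained daily for 7 days, a rodent model of psychological stress, and the other was the control, with 2 libraries in each. Age is not used here. Nothing in the labels ties a library to 1 animal or to several, and a p-value here reflects no more than the spread between libraries, part of which may be technical.

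Interferon alpha and beta bind a receptor of the chains IFNAR1 and IFNAR2, which acts through the kinases JAK1 and TYK2. These phosphorylate STAT proteins, STAT2 among them, which join IRF9 and bind the interferon-stimulated response element in the promoters of their targets. The products degrade viral RNA, hold virions at the membrane, sense foreign nucleic acid or feed back on the pathway. By role, the 35 genes are 18 antiviral effectors, 3 transcription factors, 4 sensors of nucleic acid, 3 genes of feedback or of ubiquitin and ISG15 ligation, and 7 other induced genes.

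Promoters are shown first. The genes were chosen by name as interferon-stimulated, and such genes are switched on through the response element, so the element is not independent of the choice. The element was searched as GAAANNGAAA and, for the other strand, TTTCNNTTTC, with overlapping matches counted separately. RefSeq promoters (build GRCm38.p6), from 250 bases before to 50 bases after a start site, were at hand for 27 of the 35 genes. A match stood in 16 of the 27 (59.3%), against 1079 of all 27025 genes with a promoter (3.99%). The close copies Ifit3 and Ifit3b, and Oas1a and Oas1g, each count separately among the 16. A few are printed, 5′ to 3′ along the gene, with matches in capitals: Isg15 at chr4:156200769-156201068 (minus strand), Ifit1 at chr19:34640639-34640938 (plus strand), Ifitm3 at chr7:141010695-141010994 (minus strand), Bst2 at chr8:71537423-71537722 (minus strand) and Irf7 at chr7:141266375-141266674 (minus strand). Isg15, Ifitm3 and Bst2 are among the most abundant of the list, Ifit1 stands for the Ifit family, and Irf7 is a gene that rose in macrophage-like cells and has no match in this window.
Isg15: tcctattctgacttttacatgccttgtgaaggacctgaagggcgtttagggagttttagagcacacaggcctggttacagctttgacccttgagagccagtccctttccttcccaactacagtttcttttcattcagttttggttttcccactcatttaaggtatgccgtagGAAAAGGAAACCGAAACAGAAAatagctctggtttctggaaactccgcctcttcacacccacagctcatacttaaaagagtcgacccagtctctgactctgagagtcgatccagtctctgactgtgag
Ifit1: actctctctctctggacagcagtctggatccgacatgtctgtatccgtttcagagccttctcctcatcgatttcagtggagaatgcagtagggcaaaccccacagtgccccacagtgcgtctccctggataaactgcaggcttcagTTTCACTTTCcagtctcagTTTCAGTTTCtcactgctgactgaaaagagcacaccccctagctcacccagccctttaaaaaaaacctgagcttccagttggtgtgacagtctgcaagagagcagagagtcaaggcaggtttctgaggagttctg
Ifitm3: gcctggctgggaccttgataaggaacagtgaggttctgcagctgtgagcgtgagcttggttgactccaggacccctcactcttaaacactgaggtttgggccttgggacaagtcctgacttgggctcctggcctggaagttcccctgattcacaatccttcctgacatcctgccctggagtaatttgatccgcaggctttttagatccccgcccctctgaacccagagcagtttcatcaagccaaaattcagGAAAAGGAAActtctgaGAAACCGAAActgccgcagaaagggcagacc
Bst2: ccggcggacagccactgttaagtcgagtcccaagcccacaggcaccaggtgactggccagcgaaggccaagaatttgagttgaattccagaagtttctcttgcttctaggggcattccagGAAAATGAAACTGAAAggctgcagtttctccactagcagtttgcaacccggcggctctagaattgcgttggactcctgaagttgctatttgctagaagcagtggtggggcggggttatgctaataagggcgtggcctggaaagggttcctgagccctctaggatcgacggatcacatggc
Irf7: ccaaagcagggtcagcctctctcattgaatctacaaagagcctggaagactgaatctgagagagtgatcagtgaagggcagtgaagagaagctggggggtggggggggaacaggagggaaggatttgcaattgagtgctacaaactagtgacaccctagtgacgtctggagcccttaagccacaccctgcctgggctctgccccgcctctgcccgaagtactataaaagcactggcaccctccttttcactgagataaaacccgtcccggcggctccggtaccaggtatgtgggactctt

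With the start site as base 1, the 3 matches of Isg15 began at -78, -72 and -66 and overlapped one another. Those of Bst2 began at -130 and -124, and those of Ifit1 at -104 and -85. Both matches of Ifitm3, at 3 and 20, lay after its start. A match is a run of letters and not a measured binding site, and its absence says only that these letters are not in this window. Dhx58, Oas2, Usp18, Mx1, Parp14, Zbp1, Ifi27l2a and Rtp4 had no promoter in the table.

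**Figure D1:**
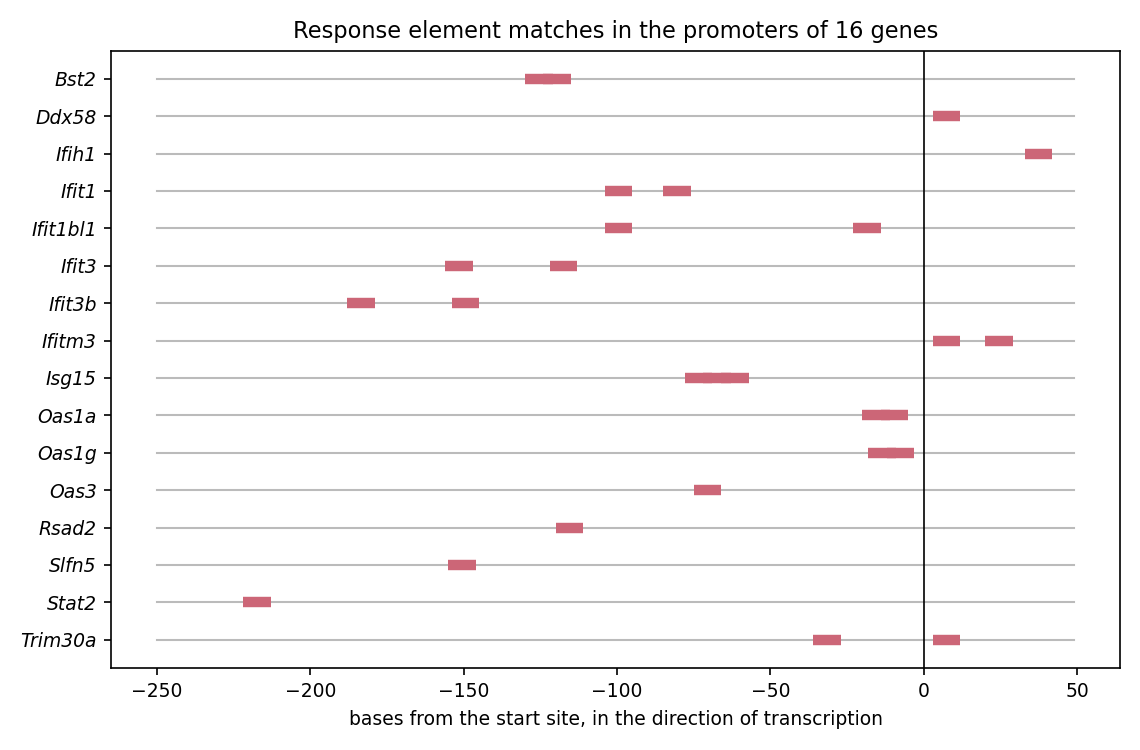
Matches to the response element in the promoters of the 16 genes that hold one, by position in bases from the start site along the gene. Those of Isg15 and Bst2 lie before the start site, and those of Ifitm3, Ddx58 and Ifih1 after it.

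The 4 matrices held 24915 barcodes, of which 20476 had at least 500 unique molecular identifiers (UMIs, 1 per captured transcript) and at most 10% mitochondrial UMIs. These held 12552824 to 36370030 UMIs a library, with a median of 2174 to 4547 UMIs a cell. Barcodes over the mitochondrial limit made up 12.9 and 11.1% of the control libraries and 18.8 and 26.0% of the stress libraries. Any pair of libraries shared 3 to 12 barcodes. Marker genes, none of them among the 35, placed 18234 cells (89.1%) in 15 classes, whose names end in -like because they rest on transcripts alone. Although the sort was for leukocytes, control 1 held 230 fibroblast-like cells, against 5, 8 and 1 in the others. Levels are in CPM, the UMIs of a gene per 1000000 UMIs of the class in a library, always in the order control 1, control 2, stress 1, stress 2. A gene is called, and said to rise or fall, where edgeR's quasi-likelihood test gave an adjusted p (Benjamini-Hochberg, over all genes tested) under 0.05, and log2 changes are stress minus control.

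Among the 8 classes with at least 30 cells in every library, monocyte-like and macrophage-like cells carried the most of these transcripts per UMI. Summed over the 35 genes, monocyte-like cells held 6172, 6188, 7199.8 and 6306 CPM, above every other fitted class in each library. Macrophage-like cells held 2241, 2266, 3359 and 3596 CPM, with both stress libraries above both controls. CD4 T cell-like cells held 1180.1, 805, 1322 and 1419.8 CPM and CD8 T cell-like cells 864, 537, 955 and 918 CPM. Other T cell-like cells, with markers of both CD4 and CD8 T cells or of neither, held 850.3, 719.7, 1063 and 1089 CPM. In NK or ILC1-like cells, natural killer cells or type 1 innate lymphoid cells, the sum was 1029.7, 689.7, 712 and 1379 CPM, and the groups overlapped. B cell-like cells held 668, 478, 679 and 881 CPM. Plasma cell-like cells, which secrete antibody, held 771, 761, 701 and 685 CPM, with both stress libraries below both controls.

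**Figure D2:**
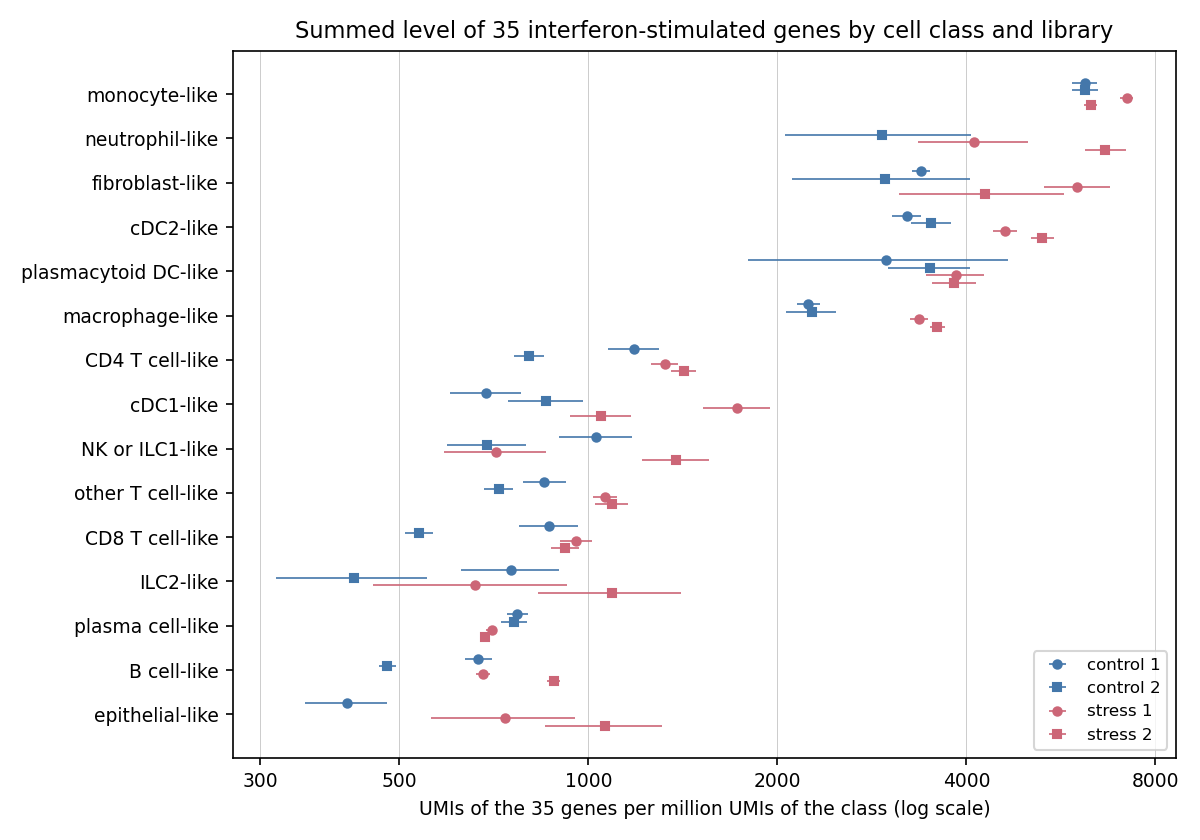
UMIs of the 35 genes per 1000000 UMIs of each class (log scale), by library, with exact Poisson 95% intervals that cover counting error only. The monocyte-like libraries lie between 6172 and 7200, and the macrophage-like controls lie below the macrophage-like stress libraries.

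Classes with under 30 cells in a library were not fitted, and their values are a description. The cDC2-like cells, dendritic cells known for priming CD4 T cells, held 3212, 3510.1, 4604 and 5283 CPM from 55, 26, 73 and 37 cells, with both stress libraries above both controls. Plasmacytoid DC-like cells, known as strong makers of interferon alpha, held 2983, 3496, 3844 and 3825 CPM from 1, 7, 20 and 19 cells. Neutrophil-like cells held 2935, 4118 and 6658 CPM from 8, 21 and 41 cells in control 2, stress 1 and stress 2, and control 1 had none. cDC1-like cells, which cross-present antigen, held 686, 857, 1725 and 1047 CPM from 31, 26, 19 and 20 cells. ILC2-like cells held 753, 423, 659 and 1090.3 CPM from 52, 34, 24 and 11 cells, and fibroblast-like cells 3389.8, 2962, 6004 and 4279 CPM from 230, 5, 8 and 1 cells.

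Of the 120288 UMIs of the list, 25.2% belonged to Ifitm3, an endosomal membrane protein that blocks virus entry. Ifi27l2a, a small interferon-induced protein, gave 17.9% and Bst2 (tetherin), which holds budding virions at the cell surface, 17.7%. Without these 3, monocyte-like cells held 1507, 1199.7, 2017 and 1820.4 CPM and macrophage-like cells 889.7, 869, 1414 and 1259 CPM, each with both stress libraries above both controls. Plasma cell-like cells then held 151, 181, 209 and 189 CPM, also with both stress libraries above both controls, so the order of the groups there turned on the 3 abundant genes. Neutrophil-like cells, at 1875, 3286 and 4991 CPM in the 3 libraries that held them, then had the highest mean of the 15 classes.

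The level of each gene was tested between the 8 classes with at least 30 cells in every library, each class against the mean of the other 7. Only genes that pass a filter on low counts were tested. A scarce gene that passes only through the class in which it is high had to be higher there. The counts among the 30 tested genes thus do not stand for the whole list. In monocyte-like cells 27 of 30 tested genes were higher, where 28.7% of all genes tested were, and 0 were lower (25.1% of all genes). In macrophage-like cells 23 were higher (29.9% of all genes) and 2 lower (21.4%), Isg20 and Ddx58. The fitted level of a gene with very few UMIs in a class depends on the count added before logs are taken. No such value is given for the 11 of the 30 with at most 3 UMIs in at least 1 of the 8 classes, which enter the counts and the mean of the other classes. Ifitm3 was 6.77 log2 units above the mean of the other classes in monocyte-like cells (SE 0.22) and 4.56 in macrophage-like cells (SE 0.24). Slfn5 was 4.16 above in monocyte-like cells on the same scale.

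B cell-like cells had 2 genes higher (35.1% of all genes), Ifi27l2a and Irf9, and 19 lower (25% of all genes), with Ifitm3 at -3.92 log2 units. Plasma cell-like cells had 6 higher (31.4% of all genes) and 21 lower (29.6%). Scaling by total UMIs in place of TMM, an alternative added after seeing the data, moved the median of all genes in that class by 1.40 log2 units, and only Bst2 and Isg20 were higher under both. Bst2 was 3.44 log2 units higher by TMM and 2.04 by total UMIs, and Isg20, an RNA exonuclease, 2.64 and 1.24.

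CD4 T cell-like cells had 3 genes higher (19.5% of all genes), Ifi27l2a, Ifih1 at 1.04 and Isg15 at 0.41 log2 units, and 6 lower (13.8% of all genes). CD8 T cell-like cells had 3 (22% of all genes), Ifit1bl1, Rtp4 and Herc6, the last at 0.53, and 4 lower (17.2%). Other T cell-like cells had 1 (20.9% of all genes), Ifit1bl1, and 5 lower (13.9%). NK or ILC1-like cells had 4 (11% of all genes), Ifih1, Isg15, Irf7 and Ddx58, between 0.95 and 1.28, and 2 lower (7.16% of all genes), Bst2 and Ifi27l2a, the latter from 1 UMI in the 4 libraries. By total UMIs 6 genes were higher in CD4 T cell-like and 8 in other T cell-like cells.

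**Figure D3:**
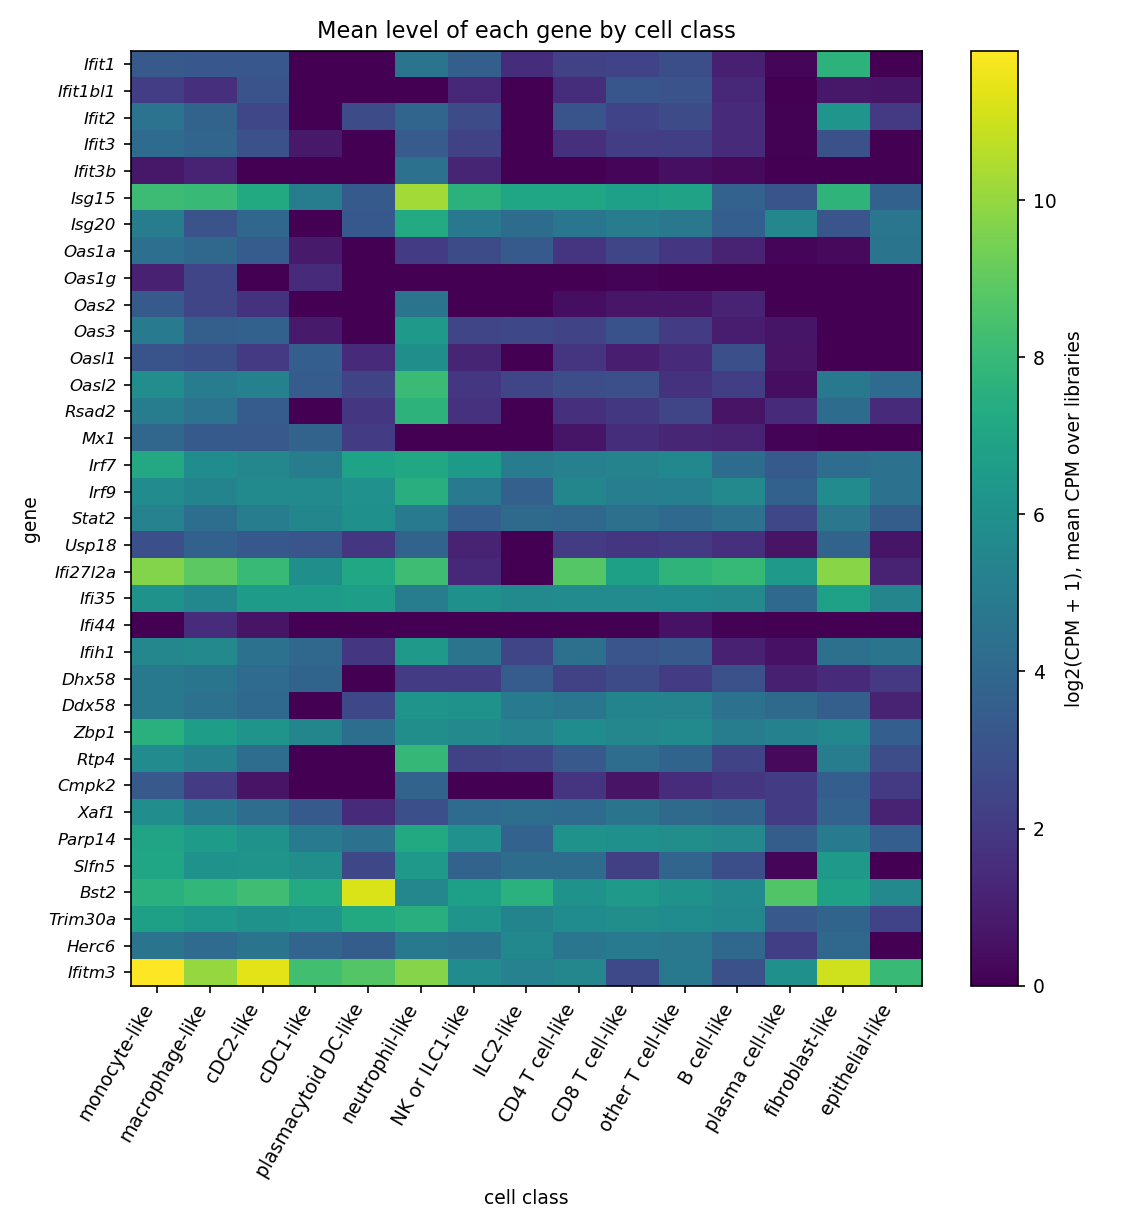
Mean level of each of the 35 genes in each class as log2(CPM + 1), over the libraries that hold the class. Ifitm3 has its highest means in monocyte-like, cDC2-like and fibroblast-like cells, and Bst2 in plasmacytoid DC-like and plasma cell-like cells.

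Ranked by mean CPM over the 8 fitted classes, 24 genes were highest in monocyte-like cells, 4 in macrophage-like, 3 in NK or ILC1-like, 2 in CD8 T cell-like and 2 in plasma cell-like cells. For Ifi27l2a, Xaf1 and Ifitm3 in monocyte-like and Bst2 in plasma cell-like cells, the libraries of the first and second class did not overlap. For the other 31 the first 2 classes overlapped.

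The antiviral effectors are described first, each in its highest class. The Ifit proteins, which bind viral RNA, were scarce. Ifit2 stood at 26.6, 14.6, 15.7 and 31.3 CPM and Ifit3 at 26.6, 7.31, 9.79 and 23.5 CPM in monocyte-like cells, and the groups overlapped for both. Ifit1 stood at 23.4, 0, 0 and 21.5 CPM in NK or ILC1-like cells and Ifit3b at 0, 0, 0 and 5.36 CPM there, from 1 UMI. Ifit1bl1 stood at 2.55, 3.65, 13.1 and 13.4 CPM in CD8 T cell-like cells, with both stress libraries above both controls. Ifit3 and Ifit3b, Oas1a and Oas1g, and Ifit1 and Ifit1bl1 are close copies, so reads may have been exchanged within each pair.

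Isg15, a ubiquitin-like protein joined to other proteins in this response, stood at 353, 113, 337 and 342 CPM in monocyte-like cells, and control 2 was far below the other 3 libraries. The oligoadenylate synthetases make the messenger that activates RNase L. In monocyte-like cells Oas1a stood at 19.96, 7.31, 20.6 and 29.5 CPM and Oas3 at 9.98, 29.3, 46.0 and 31.3 CPM, both with the stress libraries above the controls. Oas2 stood there at 0, 18.3, 8.81 and 10.4 CPM and Oasl2 at 29.9, 65.8, 73.5 and 53.0 CPM, where the groups overlapped. Oasl1 stood there at 3.33, 0, 20.6 and 6.08 CPM, without overlap but from 1, 0, 21 and 7 UMIs. Oas1g, with 22 UMIs in all kept cells, stood at 3.85, 9.60, 3.86 and 1.30 CPM in macrophage-like cells.

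Rsad2 (viperin), which makes a nucleotide that ends RNA chains, stood at 43.3, 18.3, 33.3 and 27.8 CPM in monocyte-like cells. Mx1, named for a GTPase, stood there at 9.98, 14.6, 9.79 and 21.7 CPM, and Cmpk2, a mitochondrial nucleotide kinase, at 13.3, 3.66, 8.81 and 10.4 CPM. The groups overlapped for these 3. Ifitm3 stood at 3607, 4082, 4103 and 3494 CPM in monocyte-like cells, again with overlap. Isg20 stood at 39.9, 44.0, 52.0 and 43.1 CPM in plasma cell-like cells, where control 2 lay within the range of the stress libraries. Bst2 stood there at 476, 437, 344 and 348 CPM, with both stress libraries below both controls. In plasmacytoid DC-like cells, where Bst2 is a known surface marker of the mouse, it stood at 942, 2857, 2833 and 2918 CPM.

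Of the transcription factors, Irf7, which drives the amplification of interferon alpha genes, stood at 149.7, 157, 176 and 102 CPM in monocyte-like cells. Irf9, the DNA-binding part of the STAT complex, stood there at 26.6, 62.2, 67.6 and 53.0 CPM, and the groups overlapped for both. Stat2 stood there at 36.6, 32.9, 38.2 and 44.3 CPM, with both stress libraries above both controls. Of the sensors, Zbp1, which binds Z-form nucleic acid and can start necroptosis, stood in monocyte-like cells at 149.7, 135, 233 and 235 CPM, without overlap. Dhx58 (LGP2), a regulator of the other 2 helicases, stood there at 9.98, 32.9, 37.2 and 26.9 CPM. Ifih1 (MDA5), which senses long double-stranded RNA, stood at 45.3, 48.0, 49.2 and 50.7 CPM in macrophage-like cells. Ddx58 (RIG-I), which senses short RNA ends, stood at 65.5, 44.5, 105 and 59.0 CPM in NK or ILC1-like cells.

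Of the feedback and ligase genes, Usp18, which removes ISG15 and damps the receptor, stood at 12.5, 19.2, 8.68 and 7.15 CPM in macrophage-like cells, with both stress libraries below both controls. Trim30a, a tripartite motif protein, stood at 86.5, 98.8, 124 and 116 CPM in monocyte-like cells, without overlap. Herc6, the main ISG15 ligase of the mouse, stood at 35.7, 27.7, 28.7 and 27.5 CPM in CD8 T cell-like cells, with overlap.

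The other induced genes were highest in monocyte-like cells, except Ifi44. Ifi27l2a stood at 849, 746, 873 and 827 CPM, Ifi35 at 76.5, 40.2, 89.1 and 67.7 CPM and Rtp4, a chaperone-like protein, at 59.9, 14.6, 81.3 and 51.2 CPM, all with overlap. Xaf1, a pro-apoptotic protein, stood at 59.9, 62.2, 56.8 and 48.6 CPM, with both stress libraries below both controls. Slfn5, a Schlafen protein, stood at 73.2, 124, 194 and 136 CPM, with both above. Ifi44, with 25 UMIs in all kept cells, stood at 1.93, 0, 2.89 and 2.60 CPM in macrophage-like cells.

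The comparison of stress with control called 4 of the 35 genes in at least 1 class: Zbp1, Ifitm3 and Irf7 in macrophage-like cells, Zbp1 and Ifitm3 in B cell-like cells and Parp14 in monocyte-like cells. All 6 calls were higher under stress, and none of the 6 held when classes were taken from clusters in place of the marker gate. Only genes that pass a filter on low counts were tested, between 7 and 32 of the 35. A gene that passes only through the group in which it is high had to differ, so the counts among tested genes do not stand for all 35.

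In macrophage-like cells (210, 35, 227 and 189 cells) 3 of 26 tested genes rose, where 1.21% of all genes tested did and 2.96% were called in either direction. Zbp1 (ENSMUSG00000027514, chromosome 2, 173206612 to 173218923, minus strand, GRCm38, protein coding) stood at 43.3, 62.4, 150.4 and 153 CPM, with both stress libraries above both controls. It rose (log2 change 1.57, SE 0.24, edgeR adjusted p = 0.00127). Ifitm3 (ENSMUSG00000025492, chromosome 7, 141009586 to 141010770, minus strand) stood at 707, 672, 1290.1 and 1524 CPM, without overlap. Its increase was smaller (log2 change 0.95, SE 0.20, edgeR adjusted p = 0.0130). Irf7 (ENSMUSG00000025498, chromosome 7, 141262706 to 141266481, minus strand) stood at 34.7, 19.2, 83.9 and 78.0 CPM from 36, 4, 87 and 120 UMIs, also without overlap. It rose too (log2 change 1.25, SE 0.28, edgeR adjusted p = 0.0220).

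With classes from clusters the log2 changes were 1.35 for Zbp1 (edgeR adjusted p = 0.112), 0.59 for Ifitm3 (0.438) and 1.06 for Irf7 (0.293). The Irf7 call was also lost in DESeq2 (log2 change 1.34, adjusted p = 0.312), without stress 1 (1.27, 0.109) and without stress 2 (1.35, 0.153), and that of Ifitm3 without stress 2 (0.82, 0.356). Without control 1 the log2 change of Irf7 was 2.04 (edgeR adjusted p = 0.0162). Within the class, the 6 macrophage markers summed to 14136, 10531, 7439.6 and 7124 CPM and the 5 monocyte markers to 479, 989, 905 and 835 CPM, with no marker at 0 in all libraries. Markers of dividing cells stood at 45.3, 19.2, 74.2 and 117 CPM. The macrophage markers were thus lower and those of dividing cells higher in both stress libraries, and their part in the results was not tested.

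Of the genes that were not called, Usp18 (log2 change -0.91, SE 0.50, edgeR adjusted p = 0.449) and Bst2, at 283, 259, 179 and 214 CPM (log2 change -0.55, SE 0.20, edgeR adjusted p = 0.208), had both stress libraries below both controls. Both stress libraries lay above both controls for 16 of the 26, where 28.7% of all genes tested did. The median log2 change of the 26 was 0.41, against 0.00 for all genes tested, and it was 0.22 without control 1 and 0.18 with classes from clusters. Over all 35 with no filter, mean CPM was higher under stress for 30 and lower for 5, counts that are not set against all genes.

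In monocyte-like cells (55, 44, 252 and 136 cells) 1 of 25 tested genes rose, where 0.448% of all genes tested did and 0.896% were called in either direction. Parp14 (ENSMUSG00000034422, chromosome 16, 35832874 to 35871544, minus strand), an ADP-ribosyltransferase, stood at 79.9, 47.5, 180.2 and 179.8 CPM, with both stress libraries above both controls. It rose (log2 change 1.46, SE 0.26, edgeR adjusted p = 0.0140). The call was lost in DESeq2 (log2 change 1.46, adjusted p = 0.0764), without stress 1 (1.499, 0.442), without stress 2 (1.49, 0.388) and with classes from clusters (0.87, 0.191). In the same cells the 5 monocyte markers summed to 2179, 1971, 2568 and 2248 CPM, higher in both stress libraries, and the 6 macrophage markers to 299, 296, 235 and 176 CPM, lower in both, with none at 0 in all libraries. Their part in the result was not tested. Zbp1 (log2 change 0.69, SE 0.20, edgeR adjusted p = 0.144) and Slfn5 (log2 change 0.72, SE 0.27, edgeR adjusted p = 0.326) were not called.

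The abundant genes of monocyte-like cells had log2 changes of -0.04 for Ifitm3, 0.07 for Ifi27l2a and -0.03 for Bst2, none called. For 9 of the 25 both stress libraries lay above both controls, where 22.2% of all genes tested did. The median log2 change was 0.35, against -0.01 for all genes. With 1 library left out, the median of the tested genes ranged from 0.23 to 0.45.

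In B cell-like cells (891, 2868, 3844 and 1800 cells) 2 of 26 tested genes rose, where 0.765% of all genes tested did and 1.33% were called in either direction. Zbp1 stood at 23.0, 17.1, 40.3 and 42.2 CPM, without overlap, and rose (log2 change 1.02, SE 0.20, edgeR adjusted p = 0.0218). Ifitm3 stood at 4.35, 2.23, 10.7 and 9.46 CPM from 10, 17, 93 and 72 UMIs, far below its level in phagocytes, and rose (log2 change 1.75, SE 0.35, edgeR adjusted p = 0.0230). The 7 phagocyte markers stood at 35.6, 15.4, 45.1 and 64.9 CPM in the same cells, none at 0. With every B cell-like cell that held a UMI of these markers left out, an alternative added after seeing the data, both remained called, Zbp1 at 1.05 (edgeR adjusted p = 0.00924) and Ifitm3 at 1.51 (0.0418).

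Both B cell-like calls were lost under some settings, and the log2 change is given beside each adjusted p. Zbp1 was lost without control 2 (0.76, edgeR adjusted p = 0.0831), without stress 2 (0.97, 0.0806), at a limit of 5% mitochondrial UMIs (0.76, 0.889) and with classes from clusters (0.96, 0.0858). Ifitm3 was lost without control 2 (1.13, 0.303), with 1 more marker required for a class (0.66, 0.335), with scored doublets left out (1.49, 0.0504) and with classes from clusters (1.25, 0.179), and DESeq2 gave it no adjusted p. At the limit of 5% mitochondrial UMIs no gene of the list was called in this class, and Ifitm3 had no fitted value. With 1 library left out, the median log2 change of the tested genes ranged from 0.17 to 0.73.

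Control 2 had the lowest level of the 4 libraries for 23 of the 26 genes in B cell-like cells, where it was lowest for 34.7% of all genes tested. Both stress libraries lay above both controls for 16 of the 26, against 29.3% of all genes tested. With no filter, 34 of the 35 genes had a UMI in B cell-like cells, and mean CPM was higher under stress for all 34. This count is not set against all genes, and the low control 2 enters each control mean. Oasl2, at 2.17, 1.84, 4.01 and 6.31 CPM, was not called (log2 change 1.32, SE 0.43, edgeR adjusted p = 0.164). Markers of dividing cells stood at 279, 138, 561 and 426 CPM in this class, higher in both stress libraries, and their part in the results was not tested.

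**Figure D4:**
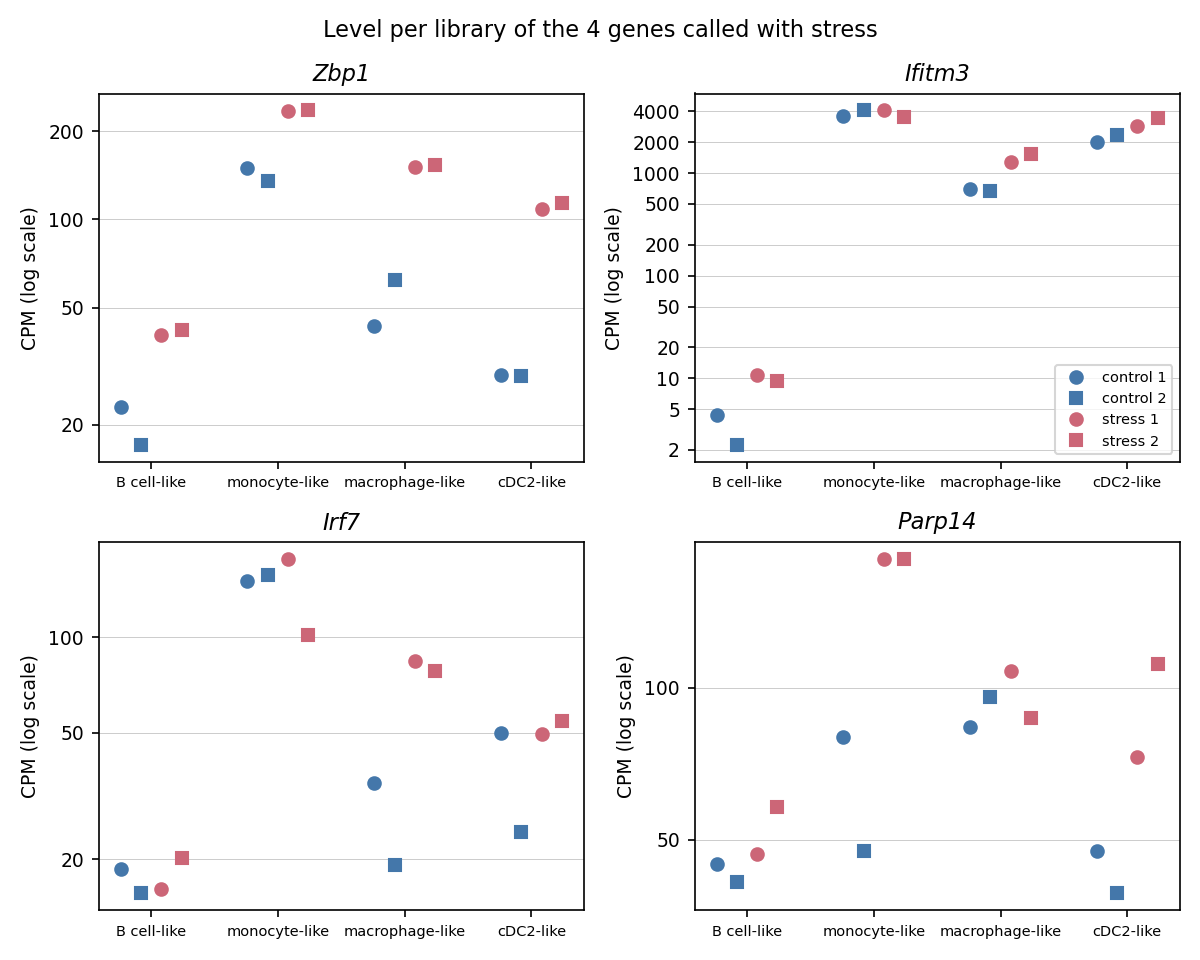
Level (CPM, log scale) of Zbp1, Ifitm3, Irf7 and Parp14 by library in B cell-like, monocyte-like, macrophage-like and cDC2-like cells, of which the last were too few to fit. Both stress libraries of Zbp1 lie above both controls in these 4 classes, Irf7 separates in macrophage-like cells alone of the 4, and Ifitm3 overlaps in monocyte-like cells.

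In cDC2-like cells, described without a test, Zbp1 stood at 29.5, 29.4, 108 and 114 CPM, Slfn5 at 36.3, 39.2, 98.8 and 109 CPM and Herc6 at 6.80, 14.7, 35.3 and 34.7 CPM. Ifitm3 stood there at 2014, 2374, 2906 and 3463 CPM. These 4 genes were chosen after seeing the data, and both stress libraries lay above both controls in each. Over the list the same held for 21 of the 35. No share of all genes is at hand for this class, so the count is not read as a result about the list.

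No gene of the list was called by edgeR or by DESeq2 in the T cell, NK or ILC1 and plasma cell-like classes. In CD4 T cell-like cells 20 were tested, of which 2 had an unadjusted p under 0.05, and 0.0375% of all genes tested were called, 0.025% as higher. Rtp4 stood at 5.35, 1.89, 16.6 and 12.3 CPM (log2 change 2.25, SE 0.64, edgeR adjusted p = 0.493), Stat2 at 8.03, 9.43, 21.5 and 22.3 CPM (log2 change 1.09, SE 0.39, edgeR adjusted p = 0.626) and Parp14 at 64.2, 38.3, 82.8 and 75.3 CPM (log2 change 0.60, SE 0.28, edgeR adjusted p = 0.683). These 3 did not overlap between groups, and 8 of the 20 had both stress libraries above both controls, against 28.2% of all genes tested.

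In CD8 T cell-like cells 17 genes were tested, of which 4 had an unadjusted p under 0.05, and 0% of all genes tested were called. Ifit1bl1 is given above (log2 change 1.74, SE 0.48, edgeR adjusted p = 0.477). Parp14 stood at 43.3, 44.5, 77.5 and 81.9 CPM (log2 change 0.71, SE 0.24, edgeR adjusted p = 0.565) and Irf9 at 15.3, 25.2, 47.0 and 44.2 CPM (log2 change 0.85, SE 0.32, edgeR adjusted p = 0.589). For 8 of the 17 both stress libraries lay above both controls, against 25.3% of all genes tested. With 1 library left out, the median log2 change ranged from 0.14 to 0.57 in CD4 and from 0.20 to 0.64 in CD8 T cell-like cells.

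In other T cell-like cells 19 genes were tested, 2 with an unadjusted p under 0.05, and 0.0488% of all genes tested were called. Ifi27l2a stood at 161, 165, 286 and 242 CPM (log2 change 0.60, SE 0.21, edgeR adjusted p = 0.672), Parp14 at 49.8, 43.2, 64.9 and 76.4 CPM (log2 change 0.51, SE 0.23, edgeR adjusted p = 0.744) and Xaf1 at 14.8, 9.89, 20.02 and 20.1 CPM (log2 change 0.69, SE 0.35, edgeR adjusted p = 0.810). Both stress libraries lay above both controls for these 3 and for 12 of the 19 in all, against 24.6% of all genes tested.

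NK or ILC1-like cells, 65, 76, 63 and 33 of them, let 7 genes through the filter, 1 with an unadjusted p under 0.05, where 0.0977% of all genes tested were called. Irf7 stood at 122, 111, 55.7 and 69.7 CPM, with both stress libraries below both controls (log2 change -0.85, SE 0.37, edgeR adjusted p = 0.916). Ddx58 had a log2 change of 0.60 (edgeR adjusted p = 0.937) and Trim30a, at 60.8, 48.2, 31.0 and 145 CPM, of 0.77 (0.949). None of the 7 had both stress libraries above both controls, against 16% of all genes tested.

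In plasma cell-like cells 18 genes were tested, 4 with an unadjusted p under 0.05, and 0.577% of all genes tested were called, 0.0944% as higher. Bst2 had the smallest p (log2 change -0.47, SE 0.14, edgeR adjusted p = 0.279). Herc6 stood at 2.42, 1.81, 4.86 and 5.14 CPM (log2 change 1.12, SE 0.36, edgeR adjusted p = 0.336) and Parp14 at 7.86, 7.71, 11.8 and 13.9 CPM (log2 change 0.65, SE 0.22, edgeR adjusted p = 0.387). For 8 of the 18 both stress libraries lay above both controls, against 25.1% of all genes tested.

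**Figure D5:**
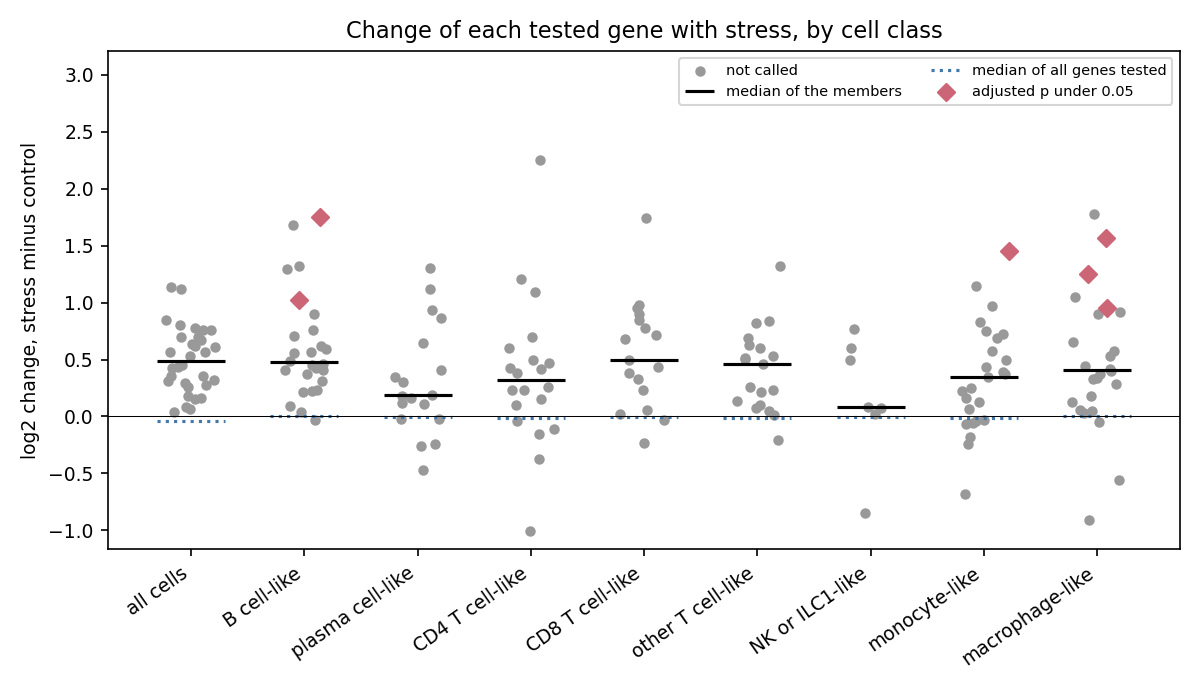
Log2 change (stress minus control) of each gene of the list that passed the filter, by class, with the median of these genes and that of all genes tested. The medians of the list lie between 0.08 in NK or ILC1-like and 0.50 in CD8 T cell-like cells, and those of all genes near 0. Without control 2 the median in CD8 T cell-like cells is 0.20, and without stress 2 that in NK or ILC1-like cells is -0.39.

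Over all kept cells edgeR called 0 of 32 tested genes and 0% of all genes tested, 7 of the 32 had an unadjusted p under 0.05, and DESeq2 called 1, Zbp1. Zbp1 stood at 33.5, 25.1, 57.2 and 55.2 CPM (log2 change 1.14, SE 0.22, edgeR adjusted p = 0.733), Isg20 at 24.3, 16.9, 32.9 and 29.9 CPM (log2 change 0.80, SE 0.25, edgeR adjusted p = 0.733) and Oas3 at 2.31, 2.63, 4.13 and 3.60 CPM (log2 change 0.85, SE 0.27, edgeR adjusted p = 0.733). Both stress libraries lay above both controls for these 3 and for 10 of the 32 in all, against 9.35% of all genes tested. In such sums more cells of a type and more RNA per cell cannot be told apart.

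The 2 controls stood apart over all cells. Ifitm3 stood at 479, 137, 310.5 and 304 CPM, Ifi27l2a at 255, 159.5, 203 and 227 CPM and Isg15 at 83.7, 33.2, 64.9 and 63.2 CPM, with control 1 the highest and control 2 the lowest library in each. Bst2 stood at 233, 119.9, 212 and 242 CPM, with control 2 the lowest. Trim30a, at 34.9, 37.3, 38.2 and 39.5 CPM, and Parp14, at 36.6, 37.7, 43.0 and 45.2 CPM, varied less, and Ifi35, at 39.9, 41.5, 37.8 and 36.1 CPM, had both stress libraries below both controls. Control 1 was the library with 230 fibroblast-like cells. With 1 library left out, the median log2 change of the tested genes ranged from 0.18 to 1.02. By mean CPM 27 of the 35 were higher under stress and 8 lower. Of all genes tested, 34.5% had both stress libraries below both controls in CPM, against 9.35% with both above. After TMM scaling all 32 tested log2 changes were above 0, Ifi35 among them at 0.06, so the scaling moved these values upward. The direction of the 32 is not set against that of all genes.

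Whether a gene's stress effect differed between classes was tested for 31 of the 35 genes, each class against the mean of the other 7. A standard error of at most 2 log2 units was had for 20 of the 31 in NK or ILC1-like, 22 in plasma cell-like and 25 to 27 in the other classes, and for Cmpk2, Ifit1bl1, Mx1 and Oas2 in none. The counts of 31 include genes without such a value. Irf7 in macrophage-like cells was the 1 call, with an effect 1.44 log2 units above the other classes (SE 0.31, edgeR adjusted p = 0.0128), where 0.574% of all genes tested were called. In the other classes 0 of the 31 were called, with 1 to 3 at an unadjusted p under 0.05 in each but other T cell-like cells, where 0 were, and the share of all genes called was 0.175% in B cell-like, 0.136% in plasma cell-like, 0.00973% in CD4 T cell-like and 0.0584% in monocyte-like cells. The Irf7 call was lost without control 1 (2.29, adjusted p = 0.122), without stress 1 (1.45, 0.167) and without stress 2 (1.48, 0.228). For Zbp1 in macrophage-like cells the difference was 1.04 (edgeR adjusted p = 0.0538) and for Parp14 in monocyte-like cells 1.14 (0.104), neither called.

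Shares of cells were compared after each cell was thinned to 1000 UMIs. Zbp1 was seen in 7.41, 9.09, 18.0 and 18.7% of monocyte-like, 3.43, 6.25, 10.6 and 9.77% of macrophage-like and 1.96, 1.62, 4.19 and 4.46% of B cell-like cells. In all 3 both stress libraries lay above both controls, with an exact two-sided permutation p of 0.333, the smallest that 2 against 2 libraries allow. Unthinned, Zbp1 was seen in 32.7, 34.1, 51.6 and 71.3%, 14.8, 17.1, 39.6 and 50.3% and 5.39, 4.15, 7.70 and 14.1% of these cells. Ifitm3 was seen in 87.0, 93.2, 94.8 and 90.3% of thinned monocyte-like cells and in 36.6, 34.4, 59.2 and 54.0% of macrophage-like cells, against 0.691, 0.184, 0.531 and 0.858% of B cell-like cells, where the groups overlapped. At least 1 of the 32 genes other than Ifitm3, Ifi27l2a and Bst2 was seen in 42.6, 47.7, 71.2 and 68.7% of monocyte-like, 45.1, 31.2, 61.0 and 55.2% of macrophage-like and 26.7, 23.9, 31.9 and 37.6% of B cell-like cells, and in 11.6, 14.7, 18.7 and 15.0% of plasma cell-like cells.

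Other genes of the pathway, counted by role, give the setting of these changes. Of 20 interferon genes of type I and III, 4 had any UMI, 11 UMIs in all, and none could be tested. Ifnb1, interferon beta, had 3, 0, 2 and 0 UMIs, and a count of 0 allows up to 0.149 CPM in control 2 and 0.0825 CPM in stress 2, for counting error only. Of the receptor chains, Ifngr1 stood at 329, 328, 219 and 195 CPM, Ifnar1 at 68.9, 91.1, 65.3 and 59.9 CPM and Ifnar2 at 72.7, 46.3, 50.8 and 52.6 CPM over all cells. Ifnar2 fell in plasma cell-like cells, at 58.0, 59.4, 36.4 and 38.5 CPM (log2 change -0.72, edgeR adjusted p = 0.0461), the 1 receptor gene called. Of all genes tested there, 0.577% were called. With the library number as a block, no pathway gene was called in that class.

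Of the signalling genes, Irf1, an activator, rose in monocyte-like cells, at 189.7, 117, 349 and 417 CPM (log2 change 1.28, edgeR adjusted p = 0.0140). Over all cells Jak1 stood at 184, 373, 197 and 145 CPM, Irf8 at 161, 154, 191 and 159 CPM and Ptpn6 at 108, 181, 131 and 121 CPM. Of 10 further sensors and adaptors 0 were called by edgeR in any class, and Tmem173 (STING) stood at 28.4, 23.0, 38.4 and 35.9 CPM, Tbk1 at 25.7, 37.9, 28.7 and 26.9 CPM and Myd88 at 27.4, 24.9, 23.1 and 21.7 CPM over all cells.

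Of 65 other interferon response genes, 54 were tested in macrophage-like cells, where 11 rose and 1 fell. Of all genes tested there, 1.21% rose and 2.96% were called in either direction. Gbp2, a guanylate-binding GTPase, stood at 150.2, 57.6, 480.2 and 637 CPM (log2 change 2.14, edgeR adjusted p = 0.00767), Igtp, an immunity-related GTPase, at 14.4, 4.80, 40.5 and 40.3 CPM (log2 change 1.56, edgeR adjusted p = 0.0306) and Ifi47, another, at 50.1, 9.60, 124 and 127 CPM (log2 change 1.51, edgeR adjusted p = 0.0218). Tap1, of the peptide transporter, stood at 97.2, 96.0, 248 and 244 CPM (log2 change 1.25, edgeR adjusted p = 0.00282), and the immunoproteasome subunits Psmb8 at 439, 399, 912 and 891 CPM (log2 change 1.02, edgeR adjusted p = 0.00956) and Psmb9 at 161, 134, 270.0 and 319 CPM (log2 change 0.87, edgeR adjusted p = 0.0379). These genes are also known targets of interferon gamma. In control 2 the class held 208251 UMIs, so the Igtp and Ifi47 values of that library rest on very few UMIs.

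Samhd1, which breaks down nucleotides, stood at 223, 182, 521 and 567 CPM (log2 change 1.30, edgeR adjusted p = 0.00274), Ms4a4c at 133, 211, 467 and 574 CPM (log2 change 1.61, edgeR adjusted p = 0.00113) and Ly6e at 489, 360.1, 868 and 913 CPM (log2 change 0.96, edgeR adjusted p = 0.0241) in macrophage-like cells. Gbp3 (log2 change 0.83, edgeR adjusted p = 0.0431) and Ifi211 (log2 change 1.07, edgeR adjusted p = 0.0258) rose too, and Ifi207 fell, at 670.1, 399, 284 and 290.4 CPM (log2 change -1.02, edgeR adjusted p = 0.0371). Ifi207 and Ifi211 are of 1 family of close copies. Where edgeR called 13 pathway genes in macrophage-like cells, DESeq2 called 6 and the cluster classes 1, which need not be among the 13. The number also changed when 1 library was left out.

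In monocyte-like cells 4 of 55 such genes rose and 0 fell, where 0.448% of all genes tested rose. Gbp3 stood at 106, 47.5, 314 and 279 CPM (log2 change 1.89, edgeR adjusted p = 0.00269), Samhd1 at 729, 896, 1559 and 1489 CPM (log2 change 0.89, edgeR adjusted p = 0.0140), Tap1 at 159.7, 95.1, 322 and 292 CPM (log2 change 1.23, edgeR adjusted p = 0.0189) and Ifitm1, a relative of Ifitm3, at 16.6, 14.6, 67.6 and 95.5 CPM (log2 change 2.35, edgeR adjusted p = 0.0140). The controls held 300530 and 273414 UMIs in this class, so their Ifitm1 values rest on few UMIs. No pathway gene was called there without stress 1, without stress 2 or with classes from clusters. In plasma cell-like cells 1 of 49 rose, Ifi47, where 0.0944% of all genes tested did. Ifi47 stood at 3.93, 4.53, 12.5 and 11.5 CPM there (log2 change 1.44, edgeR adjusted p = 0.0324). This call was lost with the library number as a block. Over all cells B2m, of class I molecules, stood at 1492, 1425, 1519 and 1668 CPM, Ly6e at 705, 763, 677 and 688 CPM and Shisa5 at 391, 672, 439 and 383 CPM.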

How the data were processed

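Droplet libraries (10x Genomics) of sorted colon leukocytes were counted by the authors, and the deposited matrices hold raw UMI counts per gene and barcode for 2 control and 2 stress libraries. Per the submitters' processing notes, Cell Ranger (given as 5 and as 5.0) and the build mm10 were used, while the matrix headers name software 3.1.0. No deposited barcode had under 500 UMIs. The members and the lists of genes and markers were chosen with earlier results of these data known. Results for 1 signalling gene are not reported here, while counts over the pathway genes include it.

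The filter of 500 UMIs and 10% mitochondrial UMIs kept 2562, 5443, 8333 and 4138 barcodes, which were placed in classes by markers, and their counts summed per class and library. Of the gated cells 87.3% had the same class from 36 Leiden clusters (scanpy 1.11.5). Scrublet's automatic threshold marked 0.234, 1.60, 0.012 and 0.0242% of barcodes, too few in 3 libraries, so the gate left out cells with many markers of another class, and an alternative left out the 53, 237, 556 and 137 highest-scoring barcodes. Sums were tested with edgeR 4.0.16 (TMM, its filter on low counts, robust quasi-likelihood) in R 4.3.3, in classes with at least 30 cells per library. Alternatives were DESeq2 1.42.0, limma 3.58.1 (equal weights over classes, on log2(CPM + 1)), other filters, clusters and each library left out. Tests were tried on simulated counts. Intervals are exact Poisson at 95%, and intervals and floors (3 counts) cover counting error only. Coordinates are from GENCODE vM21 (GRCm38) and 1-based. Genes given library by library are those called anywhere, the 3 smallest p-values per class, the 8 most abundant, and each gene in its highest class. Values in cDC2-like and plasmacytoid DC-like cells, and the log2 changes of abundant genes in monocyte-like cells, were chosen after seeing the data. Same-numbered libraries did not deviate together (correlations of deviations from -0.21 to 0.014), so the library number only names a library.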

Additional observations from a re-analysis of the deposited data

Results flagged for a closer look

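The stress effect on Irf7 in macrophage-like cells differed from that in the other fitted classes, by a test of the difference itself. Both stress libraries lay above both controls in macrophage-like cells (34.7, 19.2, 83.9 and 78.0 CPM) and below both in NK or ILC1-like cells (122, 111, 55.7 and 69.7 CPM, not called), with overlap in monocyte-like cells (149.7, 157, 176 and 102 CPM). Its effect in macrophage-like cells was 1.44 log2 units above the mean of the other 7 classes (SE 0.31, edgeR adjusted p = 0.0128). The difference held without control 2 (1.29, adjusted p = 0.0443) and was not called without control 1, stress 1 or stress 2, where it was 2.29 (adjusted p = 0.122), 1.45 (adjusted p = 0.167) and 1.48 (adjusted p = 0.228). Its cause was not tested.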

How the results depend on the processing

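With 2 libraries a group each call rests on few values, and depth limits the scarce genes. The number of genes of the list called changed with the setting as follows. DESeq2 gave 1 over all cells, 1 in B cell-like and 0 in monocyte-like cells. No filter on low counts gave 2 in monocyte-like cells. In B cell-like cells 1 more marker per class gave 1, scored doublets left out gave 1 and a limit of 5% mitochondrial UMIs gave 0. Classes from clusters gave 0 in B cell-like, monocyte-like and macrophage-like cells. Leaving out 1 library gave 0 to 21 over all cells, 0 to 6 in B cell-like, 0 to 6 in CD4 T cell-like, 0 to 5 in CD8 T cell-like, 0 to 1 in NK or ILC1-like, 0 to 3 in monocyte-like and 2 to 5 in macrophage-like cells. The cause was not tested in any of these. When 1 library was left out, the highest counts over all cells and in B cell-like, CD4 and CD8 T cell-like and monocyte-like cells came without control 1. More of all genes tested were also called in those fits than with no library left out, so these counts are not read as a result about the list. Control 1 held most of the fibroblast-like cells, and their part was not tested. Without stress 2, the median log2 change in NK or ILC1-like cells reversed to -0.39 (range -0.39 to 0.61 over the libraries left out) and that of Trim30a there to -0.77 (range -0.77 to 1.41). The median ranged from 0.18 to 1.02 over all cells, 0.17 to 0.73 in B cell-like, 0.14 to 0.57 in CD4 and 0.20 to 0.64 in CD8 T cell-like, 0.32 to 0.43 in other T cell-like, 0.077 to 0.22 in plasma cell-like, 0.23 to 0.45 in monocyte-like and 0.22 to 0.57 in macrophage-like cells when 1 library was left out. Of 334 alternatives for 27 gene values named in a class or over all cells, 333 kept the direction. The 27 were chosen by call or small p in the same libraries, which favours a kept direction, so this count is no independent support. Macrophage-like cells at 5% mitochondrial UMIs, monocyte-like cells with 1 more marker, and NK or ILC1-like cells under both were not run, with too few cells.

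With the library number as a block, 3 genes of the list were called in B cell-like (Zbp1, Ifitm3 and Stat2), 1 in monocyte-like and 3 in macrophage-like cells, and 0 in the others. The deviations of same-numbered libraries did not go together, so the block pairs libraries by number only. Crossed pairs, added after seeing the data, called 1 gene in other T cell-like cells. Of the other pathway genes, the block called 9 in B cell-like and 0 in plasma cell-like cells, and crossed pairs 1 in CD4 T cell-like, 2 in CD8 T cell-like and 4 in other T cell-like cells.

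Other pathway genes called were 2 over all cells, 1 in CD4 T cell-like and 6 in macrophage-like cells by DESeq2. With no filter they were 10 in B cell-like, 10 in plasma cell-like, 4 in CD4 and 4 in CD8 T cell-like, 1 in other T cell-like and 15 in monocyte-like cells. Doublets left out gave 5 in plasma cell-like, 5% mitochondrial UMIs 3 in CD8 T cell-like, and clusters 0 in monocyte-like and 1 in macrophage-like cells. With 1 library left out, the highest counts over all cells and in B cell-like, T cell-like and monocyte-like cells again came without control 1. More of all genes tested were called in those fits too, so the pathway is not singled out by these counts. Leaving out 1 library gave 0 to 38 over all cells, 1 to 18 in B cell-like, 1 to 6 in plasma cell-like, 0 to 18 in CD4 T cell-like, 0 to 9 in CD8 T cell-like, 0 to 3 in other T cell-like, 0 to 20 in monocyte-like and 6 to 25 in macrophage-like cells.

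For levels between classes, scaling by total UMIs gave 2 genes higher in plasma cell-like, 6 higher and 1 lower in CD4 T cell-like, 8 higher and 3 lower in other T cell-like, and 1 lower in NK or ILC1-like cells, and limma-voom 3 lower in CD4 T cell-like cells. Leaving out 1 library, added after seeing the data, gave 1 to 2 higher in B cell-like, 1 to 3 higher and 1 to 4 lower in CD4 T cell-like, 2 to 4 higher and 1 to 2 lower in NK or ILC1-like, 1 to 2 lower in macrophage-like, and 1 to 2 higher and 3 to 4 lower in other T cell-like cells. Stress effects that differed between classes were then 0 to 3 in macrophage-like, 0 to 1 in monocyte-like and 0 to 1 in plasma cell-like cells.

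The mean summed level was 7059 CPM in monocyte-like cells with 1 more marker. At 5% mitochondrial UMIs it was 1116 CPM in other T cell-like, 3135 in macrophage-like and 2716 in plasmacytoid DC-like cells. With clusters it was 5318 CPM in monocyte-like, 1825 in macrophage-like, 2546 in cDC2-like and 1024 in ILC2-like cells. Without Ifitm3, the ranks among the 8 fitted classes were 7 for B cell-like, 8 for plasma cell-like, 4 for other T cell-like and 5 for NK or ILC1-like cells. By mean log2 CPM they were 7, 8, 3 and 6, with CD4 T cell-like cells at 4 and CD8 T cell-like cells at 5. For Zbp1 the share of cells under stress minus control was 3.57 points in B cell-like, 15.1 in macrophage-like and 21.8 in monocyte-like cells at 2000 UMIs, and 6.14, 29.0 and 28.0 points unthinned. For any of the 32 scarcer genes it was 12.5 points in monocyte-like cells at 2000 UMIs, and 13.5 in B cell-like, 12.1 in macrophage-like and 6.69 in monocyte-like cells unthinned.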
